A study of Mus musculus with 6 samples.

Results

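The enzymes that make prostaglandins E2 and D2 and the receptors of prostaglandin E2 were examined in granule cells of the dentate gyrus (DG) of mice in which Bcl11b/Ctip2 was deleted in adulthood. The genes are a list of 10: the cyclooxygenases Ptgs1 and Ptgs2, the synthases Ptges, Ptges2, Ptges3 and Ptgds, and the receptor genes Ptger1, Ptger2, Ptger3 and Ptger4. They were matched by symbol to the platform annotation, and where a gene had several probe sets, the brightest by its average of the 6 arrays stood for it. Of the 10 genes, 9 had a probe set of their own, among 19938 genes tested in all. Ptgs1 was not analysed here. The study picked out Ptgs2 from these samples, so its direction in the arrays is no independent evidence. Separately, the paper reports a loss of Ptgs2 mRNA in mutants by quantitative RT-PCR, at the same time after induction as the arrays. By its methods, the doxycycline-dependent line of the arrays served only the transcriptome and a count of synapses. The RT-PCR would then come from its other, tamoxifen-inducible line, although the paper does not name the line at that result. The RT-PCR values were not re-analysed here.

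Mutants carried floxed alleles of Bcl11b together with tetO-Cre and CaMKIIα-tTA, a transactivator that is active in forebrain neurons and is switched off by doxycycline. Doxycycline was given in the drinking water from embryogenesis until 2 months of age to the mice of both groups, and its removal induced the mutation. The granule cell layer was cut out by laser capture microdissection from stained cryosections 4 weeks later, and RNA was hybridized to 3 mutant and 3 control arrays of the 1-colour Affymetrix whole-transcript type. The sources used here do not give the genotype of the controls of this line. The CaMKIIα promoter is active in forebrain neurons at large and not in granule cells alone. Whether each array holds a single animal is not stated either, so the p-values cover the spread among these arrays, which may be technical.

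Prostaglandins are lipid mediators made from arachidonic acid, which phospholipases and other lipases cut from membrane lipids. A cyclooxygenase turns arachidonic acid into an unstable intermediate, and terminal synthases turn that into prostaglandin E2, prostaglandin D2 or others. Prostaglandin E2 acts on 4 G protein-coupled receptors, EP1 to EP4. Among the cyclooxygenases, Ptgs2 is the inducible one, and in the brain it is known as a gene of excitatory neurons whose transcription follows synaptic activity.

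All values are log2 expression levels after robust multi-array averaging (RMA), and a change is the mean of mutants minus the mean of controls on that scale. The array medians lay between 6.29 and 6.36. Levels of different genes cannot be set against each other, since each probe set responds differently. Of all genes tested, 15.2% differed between mutants and controls at an adjusted p under 0.05 (limma, Benjamini-Hochberg adjustment over all genes), 9.23% being higher and 5.93% lower in mutants. When arrays were centred on their medians instead, 44.2% of the calls were higher in mutants, against 60.9% as deposited. Bcl11b itself stood at 9.03, 8.68 and 8.82 in mutants, against 10.56, 10.40 and 10.30 in controls, a change of -1.58 (adjusted p = 2.56e-05 from limma), with no overlap of the groups. The position of the Bcl11b probes with respect to the floxed exon was not checked. The granule cell marker Prox1, a transcription factor of these cells, was at 11.65, 11.59 and 11.57 in mutants and at 11.81, 11.70 and 11.45 in controls.

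Of the prostaglandin set 2 genes were lower in mutants, 1 by a large and 1 by a small amount. Ptgs2 was about 10.7-fold lower in mutant than in control granule cells, and Ptges2 was lower by a log2 change of -0.23. No gene of the set was higher at the adjusted threshold, and the remaining 7 genes did not pass it. At an unadjusted p under 0.05 limma gave 1 higher gene, Ptges, and the methods' test, an unpaired test gene by gene, gave none after adjustment. The 2 lower genes of 9 stand against 5.93% of all genes lower. The groups did not overlap for 3 of the 9 genes, 1 higher and 2 lower, against 31.6% of all genes. The median change over the 9 genes was -0.14, against -0.0027 over all genes tested.

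Ptgs2 (probe set 10350516) had levels of 8.23, 7.92 and 7.84 in mutants 1, 2 and 3, against 11.52, 11.51 and 11.20 in controls 1, 2 and 3. Every mutant lay more than 2 log2 units under every control, and the spread within each group was small beside that distance. The means were 7.99 ± 0.21 in mutants and 11.41 ± 0.18 in controls (SD, n = 3 each). The change was -3.42 (standard error 0.12, 95% confidence interval -3.68 to -3.15, adjusted p = 1.07e-06 from limma). Of the 19938 genes, 1 had a larger decrease. When each array was left out in turn, the change stayed between -3.53 and -3.34, with adjusted p between 5.15e-07 and 3.29e-05 from limma. The exact permutation test of 3 arrays against 3 cannot go below a p of 0.1.

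**Figure D1:**
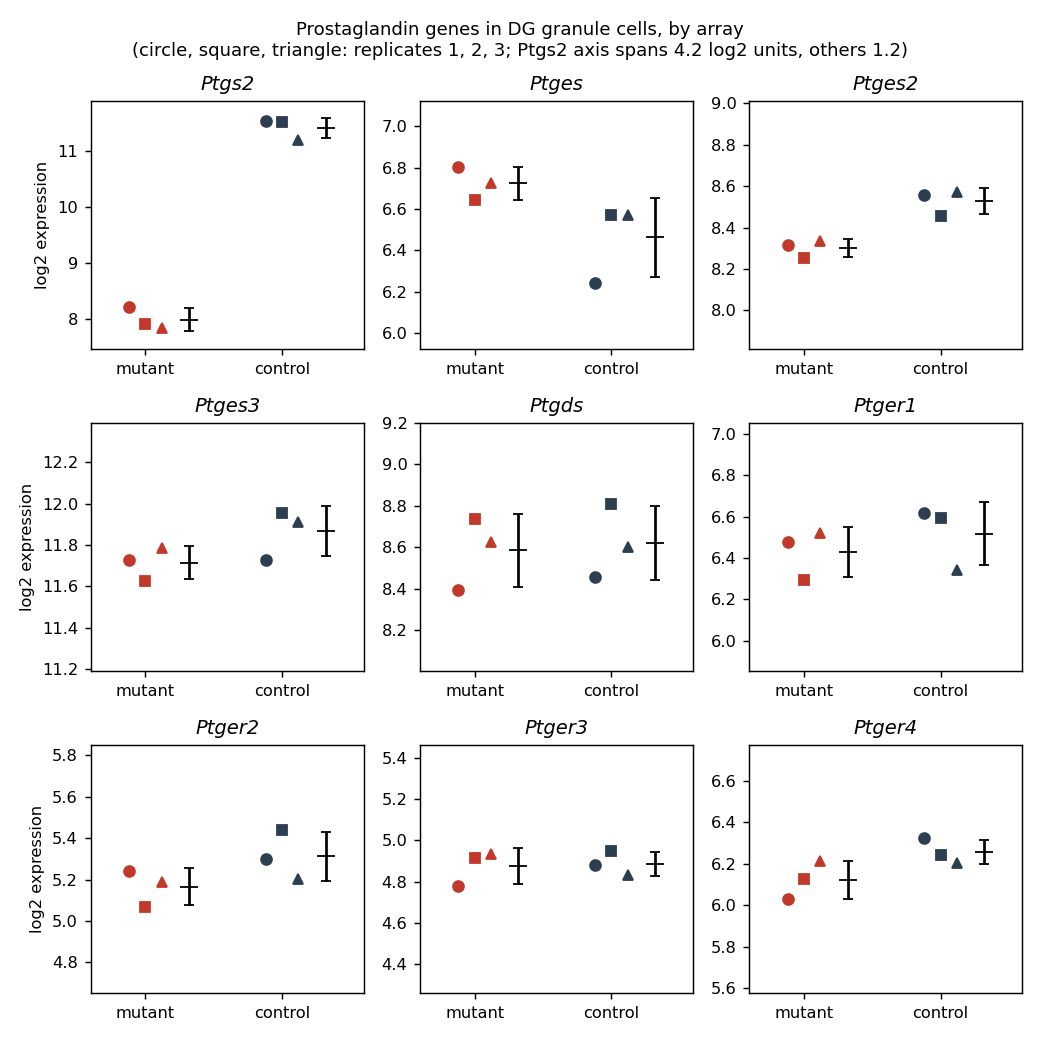
Log2 expression (vertical axes) of the 9 measured genes in each array, with mutants on the left and controls on the right of each panel. Symbols are replicates 1, 2 and 3, and each bar is a group's mean with its SD (n = 3). Ptgs2 drops to a mean of 7.99 in mutants, against 11.41 in controls. Its axis spans 4.2 log2 units while the others span 1.2.

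The residual Ptgs2 signal of the mutants was above the level of 5.69 that served as a filter on dim genes, the 95th percentile of the means of 1027 olfactory receptor genes. Fewer cells of a type and less RNA per cell cannot be told apart in such samples. Markers of mature granule cells also moved, in both directions. Of 12 such markers 3 were higher and 6 lower, against 9.23% of all genes higher and 5.93% lower. Their median change was -0.28, and the single changes ran from -1.64 to 1.13. Their summed linear signal ran from 20010 to 20354 in mutants and from 25258 to 25795 in controls. The brightest probe sets weigh most in sums of this kind, which therefore do not show a fall of every marker. Prox1 had a change of -0.05 (adjusted p = 0.788 from limma) and the calcium buffer Calb1 one of -0.97. The part of these markers in the fall of Ptgs2 was not tested.

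Ptgs2 lies on chromosome 1 of the mouse build GRCm38.p6 and starts at position 150100031 on the plus strand. The 250 bases before that start are shown because Ptgs2 had the largest change of the set, and the paper names TGGGC as a putative Bcl11b binding motif. A short stretch just after the annotated start is shown because it holds the cAMP response half-site CGTCA, which overlaps an E-box, CACGTG. Both sequences are from RefSeq, in lower case with motif matches in capitals.
Ptgs2 upstream, chr1:150099781-150100030, plus strand: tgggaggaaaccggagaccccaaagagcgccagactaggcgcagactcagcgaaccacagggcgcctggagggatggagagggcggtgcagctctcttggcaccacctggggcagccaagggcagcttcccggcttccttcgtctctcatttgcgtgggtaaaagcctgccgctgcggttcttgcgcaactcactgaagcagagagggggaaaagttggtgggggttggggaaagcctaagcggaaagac
Ptgs2 start, chr1:150100034-150100063, plus strand: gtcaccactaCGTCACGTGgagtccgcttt

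On both strands of the window of 300 bases, which runs from 250 before to 50 after the start, Ptgs2 had no match to TGGGC. A match was present in 56.8% of 27025 promoter windows of the same length. The combined motif CGTCACGTG was found once in Ptgs2, at base 14 after the start, and in 0.5% of all windows. A half-site CGTCA alone was in 21.0% of windows and CACGTG alone in 7.2%. The full palindrome TGACGTCA, present in 1.9% of windows, was absent from the Ptgs2 window. These matches describe letters, not sites. By chromatin immunoprecipitation the paper reports Bcl11b enrichment at a Sema5B promoter region that lacks TGGGC. Its C1ql2 region lay farther upstream than the window used here. Whether Bcl11b binds at Ptgs2 was not tested.

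Of the 3 terminal synthases of prostaglandin E2, Ptges2 was the one that passed the test. Ptges encodes the inducible membrane enzyme that is often coupled to Ptgs2. Its levels were 6.80, 6.65 and 6.72 in mutants and 6.24, 6.57 and 6.57 in controls. All mutants were above all controls, a separation in this direction that 17% of all genes showed, but control 1 stood well below the other controls. The change of 0.26 (95% confidence interval 0.05 to 0.47) did not pass after adjustment (adjusted p = 0.104 from limma). Without control 1 the change was 0.15 (adjusted p = 0.130 from limma).

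Ptges2, a second membrane-associated enzyme given as a prostaglandin E synthase, had levels of 8.32, 8.25 and 8.33 in mutants, against 8.56, 8.46 and 8.57 in controls. The groups did not overlap, as for 14.6% of genes that were separated with mutants lower. The change was -0.23 (standard error 0.056, adjusted p = 0.0270 from limma), about 1.17-fold. Without mutants 1, 2 or 3 or without control 3 the adjusted p from limma was 0.0811, 0.105, 0.0679 and 0.0724, and the call was lost. Without control 1 or control 2 it held, at 0.0365 and 0.0376, and with any array left out the change lay between -0.26 and -0.20. With the methods' test after adjustment it was 0.0724, and over all alternatives it ran from 0.00834 to 0.105. The sequence before its start on chromosome 2 is shown beside that of Ptgs2 since Ptges2 was the other gene of the set called lower. It holds 1 TGGGC and 1 CACGTG, both in capitals.
Ptges2 upstream, chr2:32395640-32395889, plus strand: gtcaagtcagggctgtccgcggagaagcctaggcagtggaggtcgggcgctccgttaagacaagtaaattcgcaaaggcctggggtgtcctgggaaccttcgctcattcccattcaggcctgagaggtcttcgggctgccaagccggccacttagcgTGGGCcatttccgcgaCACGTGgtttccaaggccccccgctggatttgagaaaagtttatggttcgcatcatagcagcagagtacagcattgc

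Promoter windows were matched for 9 of the 10 genes, all but Ptger1. Among the other windows, TGGGC occurred 2 times in Ptges, 4 times in Ptgds and once each in Ptgs1 and Ptger3, and it was not found in Ptges3, Ptger2 and Ptger4.

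Ptges3 encodes p23, a co-chaperone of Hsp90 that also serves as a cytosolic prostaglandin E synthase. Its brightest probe set (10511865) was at 11.73, 11.63 and 11.78 in mutants, against 11.73, 11.96 and 11.91 in controls. Mutant 3 lay above control 1 while mutants 1 and 2 lay below every control, and the change of -0.15 did not pass (95% confidence interval -0.32 to 0.02, adjusted p = 0.230 from limma). A pair of further probe sets gave changes of -0.19 and -0.25, with adjusted p = 0.140 and 0.0885 from limma over 21789 probe sets. All 3 probe sets are annotated to the same gene, and the annotation does not say whether some match a copy of the gene elsewhere. Without control 1 the brightest probe set passed, with a change of -0.22 (adjusted p = 0.0371 from limma), while over all alternatives its adjusted p ran from 0.0262 to 0.526.

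Ptgds makes prostaglandin D2 and is known in the brain from leptomeninges, choroid plexus and oligodendrocytes. Its levels were 8.39, 8.74 and 8.62 in mutants and 8.45, 8.81 and 8.60 in controls, with the groups fully interleaved. The change was -0.04 (95% confidence interval -0.28 to 0.21, adjusted p = 0.882 from limma). Of 12 oligodendrocyte markers 2 were lower, with a summed linear signal of 2814 to 3198 in mutants and 3421 to 3602 in controls. Of 10 leptomeningeal markers 2 were lower, and of 6 choroid plexus markers 1 was lower, against 5.93% of all genes. The median changes of these 2 lists were -0.05 and 3.4e-05. Of the 10 markers 6 reached the filter on dim genes, and of the 6 markers 3 did. These are small counts. The defining choroid plexus transcript Ttr stood between 5.11 and 5.21 in mutants and between 4.94 and 5.33 in controls, under the filter on dim genes. The part of these cells in the level of Ptgds was not tested.

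None of the genes of the 4 receptors of prostaglandin E2 passed the test. Ptger1, whose product EP1 raises intracellular calcium, had levels of 6.48, 6.29 and 6.52 in mutants and of 6.62, 6.59 and 6.34 in controls. The change was -0.09 (95% confidence interval -0.29 to 0.12, adjusted p = 0.610 from limma). Ptger4, whose product EP4 raises cAMP, had levels of 6.03, 6.13 and 6.21 in mutants and of 6.32, 6.24 and 6.21 in controls. Only mutant 3 reached the lowest control, and the change was -0.14 (95% confidence interval -0.28 to 0.01, adjusted p = 0.220 from limma).

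Ptger2, whose product EP2 also raises cAMP, was at 5.24, 5.07 and 5.19 in mutants, against 5.30, 5.44 and 5.20 in controls. Ptger3, whose product EP3 lowers cAMP, was at 4.78, 4.92 and 4.93 in mutants, against 4.88, 4.95 and 4.83 in controls. Both genes had means under the filter on dim genes, so their transcripts were not shown to be above background here. The intervals of their changes were -0.32 to 0.02 for Ptger2 and -0.15 to 0.13 for Ptger3. The means of Ptger1 and Ptger4, 6.47 and 6.19, lay little above that filter of 5.69. A fall of the full size of that of Ptgs2 could therefore not have shown in any of the 4 receptor genes. For Ptger2 and Ptger3 the intervals do not tell whether a fall took place. Ptger1 and Ptger4 had means of 6.52 and 6.26 in controls and of 6.43 and 6.12 in mutants. Their intervals, -0.29 to 0.12 and -0.28 to 0.01, did not reach down to a fall to the filter. The background of each single probe set is not known.

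**Figure D2:**
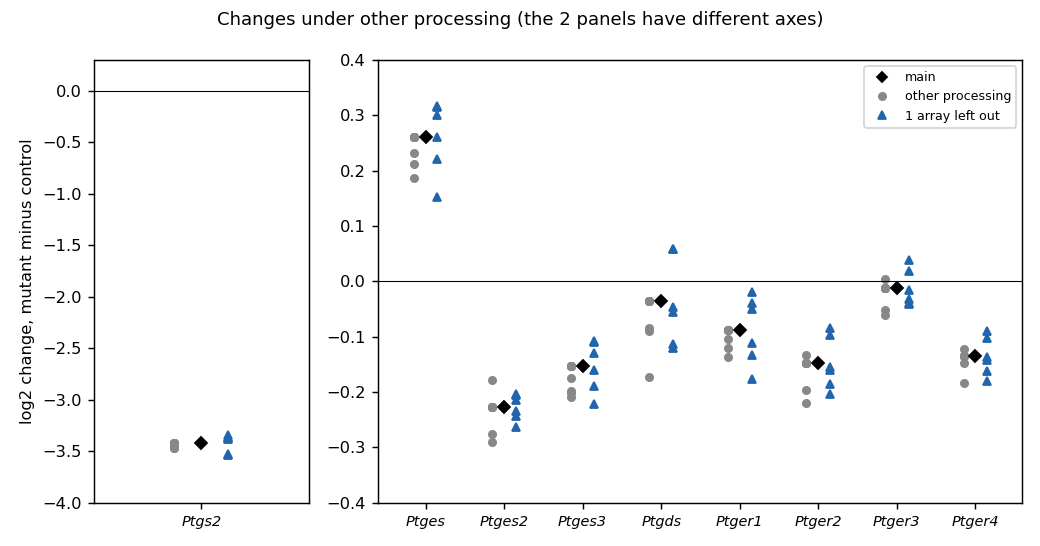
Log2 change of each gene, mutant minus control (vertical axes), in the main comparison (diamonds), under 11 other processing choices (circles) and with 1 array left out (triangles). Ptgs2 is drawn on its own axis and stayed between -3.53 and -3.34. Ptgds and Ptger3 changed sign between settings and passed the test in none, while Ptges2 stayed between -0.29 and -0.18.

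Upstream of the cyclooxygenase, 5 genes of arachidonate release and return were higher in mutants and 1 was lower. Of 25 listed genes 24 were measured and 18 did not pass, against 9.23% of all genes higher and 5.93% lower, and the median change was -0.03. The largest change was that of Plaat3, a phospholipase that in mouse fat tissue feeds prostaglandin E2 synthesis. Its levels were 9.76, 9.57 and 9.71 in mutants, against 6.84, 6.83 and 7.24 in controls. All mutants stood more than 2 log2 units above all controls, and the change was 2.71 (standard error 0.11, adjusted p = 2.65e-06 from limma).

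Mgll, the lipase that splits an endocannabinoid and is a source of arachidonic acid for prostaglandins in the mouse brain, was at 9.99, 10.18 and 10.02 in mutants, against 9.76, 9.46 and 9.45 in controls. The change was 0.51 (adjusted p = 0.00682 from limma). Acsl4, which activates arachidonic acid for its return to lipids, had levels of 11.12, 11.04 and 11.05 in mutants, against 10.23, 10.55 and 10.40 in controls. Its change was 0.68 (adjusted p = 7.72e-04 from limma). For both genes the groups did not overlap.

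The calcium-independent phospholipase Pla2g6 had a change of 0.38 (adjusted p = 0.0140 from limma) and Mboat7, which returns arachidonic acid to phosphatidylinositol, one of 0.28 (adjusted p = 0.0187 from limma). Both calls depended on single mutant arrays, while the changes moved little. Without mutant 2 the change was 0.32 for Pla2g6 and 0.26 for Mboat7 (adjusted p = 0.0586 and 0.0776 from limma), and without mutant 1 it was 0.28 for Mboat7 (adjusted p = 0.0699 from limma). Over all alternatives it ran from 0.00445 to 0.124 for Pla2g6 and from 0.0139 to 0.0994 for Mboat7. The secreted phospholipase Pla2g2d was the lower gene, at 6.84, 7.02 and 6.89 in mutants, against 7.74, 7.81 and 7.47 in controls (change -0.75, adjusted p = 9.27e-04 from limma). Pla2g4a, the cytosolic phospholipase that classically supplies the cyclooxygenases, had levels under the filter, with 4.97, 5.07 and 4.99 in mutants and 5.08, 5.17 and 5.13 in controls (adjusted p = 0.214 from limma).

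**Figure D3:**
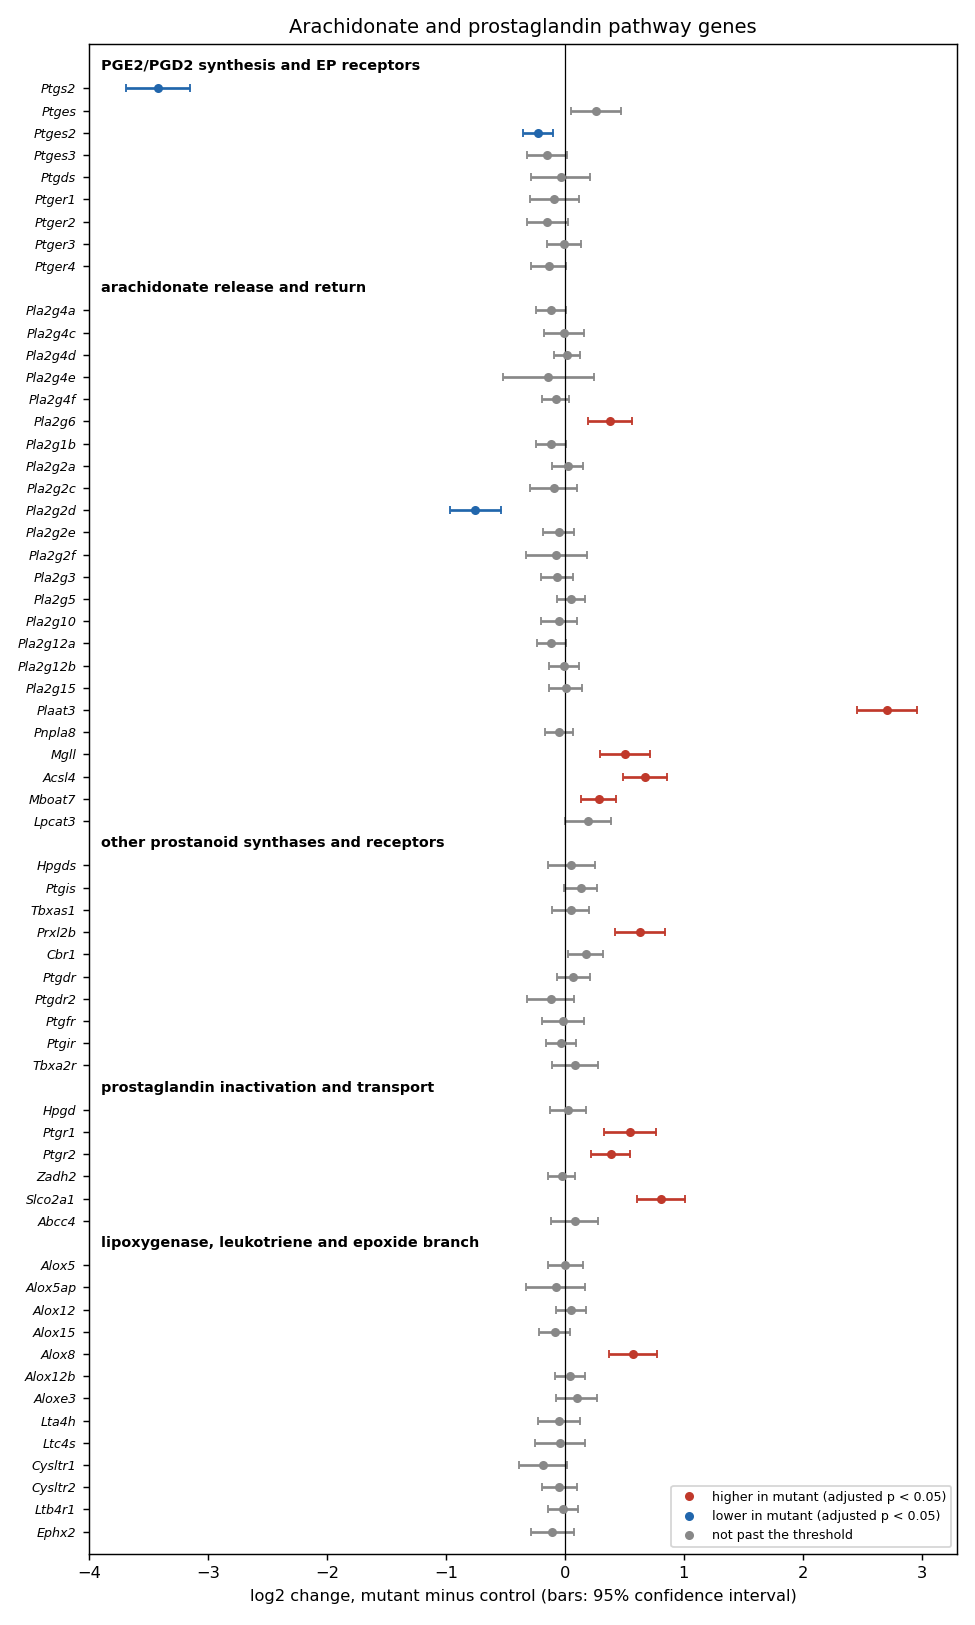
Log2 change, mutant minus control (horizontal axis), of each measured gene of the prostaglandin set and of 4 related lists, with 95% confidence intervals. Red points are higher and blue points lower in mutants at an adjusted p under 0.05 from limma, and grey points did not pass. Ptgs2 at -3.42 and Plaat3 at 2.71 lie farthest from 0.

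Of 6 genes of prostaglandin inactivation and transport 3 were higher and none was lower by limma, against 9.23% of all genes higher, and none was lower either at its unadjusted p under 0.05 or with the methods' test after adjustment, which gave 1 higher gene. The median change was 0.23. Slco2a1, the transporter that takes up prostaglandins, had levels of 8.05, 8.04 and 7.95 in mutants, against 6.999, 7.28 and 7.33 in controls. The change was 0.81 (standard error 0.088, adjusted p = 4.65e-04 from limma). The reductases Ptgr1 and Ptgr2, which act on oxidized prostaglandins, had changes of 0.55 and 0.39 (adjusted p = 0.00524 and 0.00763 from limma). In each of these 3 genes all mutants lay above all controls, as for 17% of all genes.

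The dehydrogenase Hpgd, which starts prostaglandin breakdown, was interleaved between the groups, at 6.38, 6.53 and 6.55 in mutants and 6.52, 6.37 and 6.49 in controls (adjusted p = 0.857 from limma). The exporter Abcc4 and Zadh2, a further reductase, did not pass either, with changes of 0.08 and -0.03. Of 10 measured genes of other prostanoid synthases and receptors 1 was higher, a share near the 9.23% of all genes, and none was lower, also at an unadjusted p under 0.05 (limma) or with the methods' test after adjustment. The higher gene was Prxl2b, a reductase given as a prostaglandin F synthase, at 8.45, 8.67 and 8.68 in mutants, against 7.84, 7.93 and 8.14 in controls (change 0.63, adjusted p = 0.00219 from limma). With the methods' test after adjustment, Slco2a1, Plaat3 and Acsl4 were the genes of these 3 lists that passed.

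Ptgs2 is itself known as an activity-regulated gene, and some of the other genes of that kind were lower as well. Of 33 such genes 8 were lower, none was higher and 25 did not pass, against 5.93% of all genes lower. The median change was -0.16, against -0.0027 over all genes, and 24 of the 33 changes were below 0. At an unadjusted p under 0.05 limma gave 2 higher genes, and the methods' test after adjustment gave none. Fosl2, a transcription factor of the Fos family, was at 8.46, 8.60 and 8.58 in mutants, against 9.78, 9.84 and 9.72 in controls (change -1.24, adjusted p = 7.60e-06 from limma). The synaptic pentraxin Nptx2 had a change of -1.55, the kinase Plk2 of -0.72 and the G protein regulator Rgs2 of -0.73 (adjusted p = 5.80e-05, 2.99e-04 and 4.11e-04 from limma).

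Some of these genes varied between arrays of the same group, as Fos and Npas4 did, while Jun and Ier2 varied little, with SDs of 0.070 and 0.088 in mutants and of 0.012 and 0.11 in controls. Fos stood at 6.28, 7.81 and 6.50 in mutants and at 6.50, 7.11 and 7.45 in controls, so that mutant 2 was above every control. Npas4, a transcription factor induced by calcium influx, was at 6.40, 8.30 and 6.80 in mutants and at 7.28, 7.66 and 8.76 in controls. Ptgs2 did not share this spread: in mutant 2 it lay between the other mutants, at 7.92. Its SD was 0.21 in mutants and 0.18 in controls, against 0.83 and 0.48 for Fos. A small spread was not particular to Ptgs2 among the lower genes. Fosl2 had SDs of 0.075 in mutants and 0.059 in controls, and Plk2 of 0.074 and 0.12. The lower gene Inhba varied more, with 0.39 and 0.31. The part of neuronal activity in the fall of Ptgs2 was not tested.

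**Figure D4:**
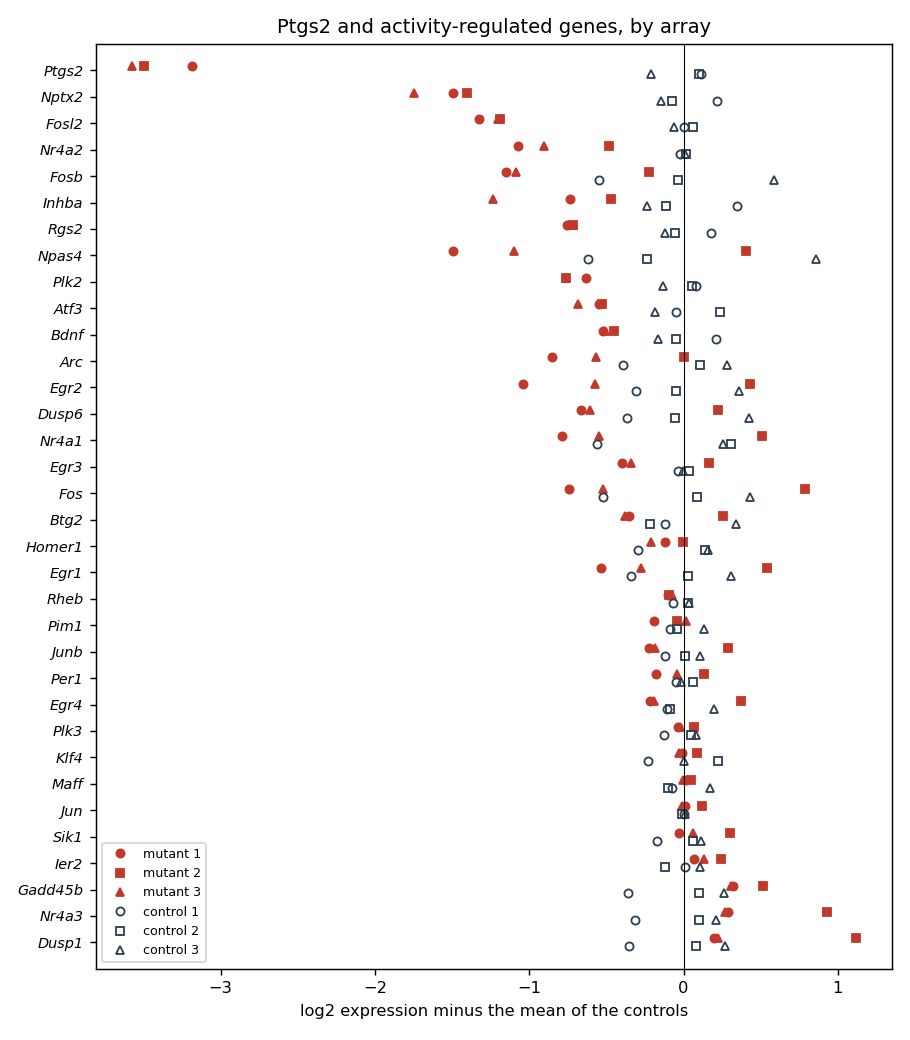
Log2 expression minus the mean of the controls (horizontal axis) of Ptgs2 and 33 other activity-regulated genes in each array. Filled red symbols are mutants and open symbols controls, with circles, squares and triangles for replicates 1, 2 and 3. Ptgs2 is the lowest, at a mean of -3.42, and mutant 2 is high for Fos and Npas4 but not for Ptgs2.

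The genes whose levels ran most closely with Ptgs2 over the 6 arrays were Sertm1, Kcng1, C1ql2, Sipa1l2 and Net1, with Pearson correlations of 0.9993, 0.9987, 0.9986, 0.9982 and 0.9978. The correlations follow mainly from the distance between the groups, which all of them share with Ptgs2, and carry no p. C1ql2, a secreted protein of the C1q family, had levels of 8.49, 8.12 and 7.99 in mutants, against 11.54, 11.49 and 11.44 in controls. Kcng1, a modulatory subunit of potassium channels, had a change of -1.57, the guanine nucleotide exchange factor Net1 of -1.13 and Sertm1 of -1.07.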

How the data were processed

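For 35556 probe sets in 6 arrays the authors deposited log2 levels, computed with RMA in Affymetrix Expression Console per the submitters' processing notes (versions and settings not given in the sources used here). RMA brings the arrays towards 1 distribution, so most of a shift that all genes share is removed. Small offsets remained, with array medians of 6.29 to 6.36, and of 7.02 to 7.08 over the genes tested. The platform annotation pairs 21789 probe sets with 1 gene, 1621 with several (left out) and does not list 12146. No filter on level was applied. The comparison of mutants and controls used limma 3.58.1 under R 4.3.3 (no covariates, Benjamini-Hochberg over 19938 genes, threshold 0.05), checked on simulated data. BRB-ArrayTools, named in the paper, was not used here. The methods' test is the unpaired two-tailed test the paper names for group comparisons.

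Genes named are the 10 of the set, up to 6 per related list and up to 4 activity-regulated genes by smallest p, and the 5 most correlated with Ptgs2. Bcl11b and the markers Prox1, Calb1 and Ttr check the tissue. Fos, Npas4, Jun, Ier2, Inhba, Pla2g4a, Hpgd, Abcc4 and Zadh2 were chosen after their values were seen. The set and the lists were chosen with earlier results of these data known. A planned comparison of Ptgs2 with Ptgs1 was not made, since Ptgs1 was not analysed here. No depth exists for arrays, and their number limits the precision. Promoter sequences are those of RefSeq, GRCm38.p6, with the first window of each symbol. Alternatives were a trend with a robust prior, array weights, the methods' test, a filter on dim genes, 2 ways to treat several probe sets, 2 scalings, a replicate block, a threshold of 0.01 and leaving out each array.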

Additional observations from a re-analysis of the deposited data

How the results depend on the processing

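The fall of Ptgs2 kept its direction and its side of the threshold under all 17 alternatives, between -3.53 and -3.34, with adjusted p up to 0.0118 (the methods' test). Part of these, such as the trend with a robust prior, the methods' test and the threshold of 0.01, alter only p or the calls. They could not move the change or its direction. The genes called among all 19938, 3023 in the main comparison, numbered 5527 with array weights, 1141 with the methods' test after adjustment, 4545 at its unadjusted p, 1554 at a threshold of 0.01 and 1886 to 4487 with 1 array left out (1886, 1954 and 1949 without mutants 1, 2 and 3, and 4487, 1931 and 2496 without controls 1, 2 and 3). The members called lower, 2 in the main comparison, were 4 with array weights (also Ptges3 and Ptger2), 1 with the methods' test after adjustment, 1 at a threshold of 0.01 and 1 to 3 with 1 array left out (1 without any of the mutants or control 3, 3 without control 1). No member was called higher under any alternative. In the list of arachidonate release and return, 5 higher genes became 2 with the methods' test after adjustment, 3 at a threshold of 0.01 and 3 without mutant 2. Its 1 lower gene became 2 with array weights, 0 with the methods' test after adjustment and 5 at its unadjusted p. The 3 higher genes of inactivation and transport became 1, and the 1 of other prostanoid genes 0, with the methods' test after adjustment. With array weights 2 other prostanoid genes were higher. The 8 lower activity-regulated genes became 4 with the methods' test after adjustment, and such genes were higher with array weights (2), without control 3 (1) and with the replicate block (1). Centring on array medians moved the median of all genes to -0.05 and the renewed quantile normalization to -0.0063, and neither changed a call in the prostaglandin set.

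No source says what the replicate numbers mark. After subtraction of the group means, arrays sharing a number correlated at 0.164, -0.0328 and 0.118 for numbers 1, 2 and 3. For 4 of 6 the best match was the array of that number, a hint towards pairing. Because number 2 showed no such correlation, the arrays were not treated as pairs. With the replicate number as a block, 3176 genes were called, and Ptgs2 had an adjusted p = 4.28e-07 from limma. The comparison of Ptgs2 with Ptgs1 within arrays was not run. The levels used here came without a measure of detection, so those of Ptger2 and Ptger3 cannot be told from background.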

Other observations

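In the lipoxygenase, leukotriene and epoxide branch of arachidonic acid metabolism, 1 of 13 measured genes was higher, a share near the 9.23% of all genes, and 12 did not pass. None was lower by limma, also at an unadjusted p under 0.05, or by the methods' test after adjustment. Array weights gave 1 lower gene. The higher gene was Alox8, which in mouse makes a hydroxylated product of arachidonic acid. Its levels were 7.12, 7.44 and 7.24 in mutants, against 6.58, 6.78 and 6.72 in controls, a change of 0.57 (adjusted p = 0.00305 from limma, and 0.0765 with the methods' test). Of the 13 genes, 6 had a mean above the filter on dim genes.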
